A study of Mus musculus with 10 samples.

Results

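The transcriptional answer of WASp-deficient (WKO) macrophages to being squeezed was measured by comparing 3 confined with 2 unconfined WKO libraries. Of the 57010 mouse gene identifiers in the table, those averaging 10 or more normalized reads across these 5 libraries, 12660 in number, made up the comparison, and 214 of them (1.69%) passed the test. The 5 libraries are part of a set of 10 that also holds wild-type (WT) cells. WT values are given only beside those of WKO cells, but the WT libraries entered the fit and its estimate of spread. Every culture was of primary bone marrow-derived macrophages (BMDM), grown from femoral marrow for 7 days with 20 ng/mL of macrophage colony-stimulating factor. All cells of the 5 libraries came from mice lacking WASp, so the unconfined WKO group (replicates 1 and 3, treatment label Control) carries the same knockout as the confined one (replicates 1, 2 and 5, treatment label Confined). Confined cells were held for 1 h at a height of 3 µm by a device with micropillars of PDMS, a silicone. Libraries were built from 5 ng of RNA each. The extent of the deletion and the age and sex of the mice are not given in the sources used here. Nothing in the labels says whether replicates are separate animals or separate cultures, so the p-values measure the spread between these libraries, which may be technical.

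WASp, the product of Was, switches on the Arp2/3 complex and so drives branched actin assembly in blood cells, and its loss causes the Wiskott-Aldrich syndrome. A macrophage pressed flat has its nucleus deformed and its actin cortex rebuilt. Stressed or stimulated macrophages transcribe immediate early genes, which need no new protein, and NF-kB target genes. The latter include cytokines, chemokines and the inhibitors that shut the pathway off again. Many of these messages are short-lived because decay factors bind AU-rich elements in them.

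Values below are normalized read counts, with the unconfined libraries in the order replicate 1, replicate 3 and the confined ones in the order replicate 1, replicate 2, replicate 5. Fold changes (confined minus unconfined) were taken from log2(value + 1), a scale that makes changes of weakly expressed genes look smaller. "Rose" and "fell" are used for genes with a limma adjusted p under 0.05 over all 12660 genes. The 5 libraries held between 13491262 and 19329908 reads, and 3 reads, taken as the detection floor for counting error only, equal a normalized read count of 2.35 to 3.59.

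The labels were checked first. Was stood at 154 and 141 unconfined and 98.9, 96.9 and 124.6 confined, against 1308 to 1649 in the WT libraries, and did not pass the test of confinement (-0.47 on the log2 scale with an SE of 0.160, and a limma adjusted p of 0.200). All 12 macrophage markers were detected, and their summed level lay between 281200 and 353100 in the WKO libraries. Csf1r, the receptor for the growth factor in the medium, stood at 28190 and 28745 unconfined and 32606, 30015 and 37839 confined. Markers of other cells were also present and differed between the confined libraries. The summed level of 18 stromal markers was 6388 and 6563 unconfined and 8241, 4053 and 18870 confined, with 17 of the 18 highest in confined replicate 5. In neutrophils and their progenitors, 16 markers summed to 33940 and 28070 unconfined and 24860, 31630 and 10090 confined. For 10 B lineage markers the sums were 5493 and 5224 against 6544, 4466 and 1836. No tested member of these 3 lists passed, and their part in the results below was not tested. In such bulk samples fewer cells of a type and less RNA per cell cannot be told apart.

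After 1 h of confinement, 184 genes rose (1.45% of those tested) and 30 fell (0.237%), while 1780 had an unadjusted p under 0.05. The rises were also larger: their median was 1.69 on the log2 scale against -1.08 for the falls, and 73 rises but only 7 falls exceeded 2. The median over all genes was -0.014. In all 184 and all 30 the confined and unconfined libraries did not overlap, a separation that 28.2% of all tested genes showed. The count depended on single libraries: leaving out unconfined replicate 1 gave 42 higher and 1 lower, leaving out unconfined replicate 3 gave 73 and 2, and leaving out confined replicate 1 gave 818 and 232. A fit of the 5 WKO libraries alone gave 32 and 1. In that fit 57 of the 81 named genes that passed the test lost their call. Through all 18 alternative settings 26 genes kept their call, all of them rises. Of the 214, 0 changed direction in any. Since their groups do not overlap, leaving out a library or changing filter, pseudocount, trend or weights could not reverse them. Of the 81 genes named below or by the same rule that passed, 58 lost their call without unconfined replicate 1 and 44 without unconfined replicate 3. These 26 are led by Klf4, Fosl2, Tob1, Fosb, Nr4a1, Maff, Irs2, Ptgs2, Cxcl2 and Zc3h12a.

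**Figure D1:**
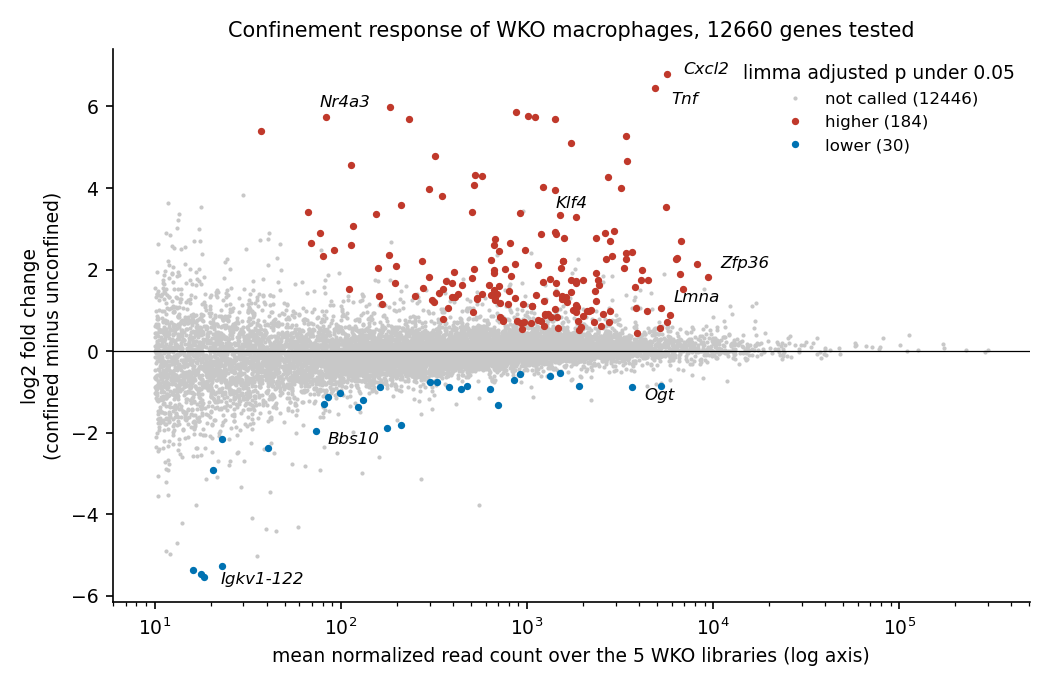
Each point is 1 of the 12660 genes tested, plotted by its mean normalized read count over the 5 WKO libraries (log axis) and its log2 fold change (confined minus unconfined). The 184 genes that rose (red) reach 6.79 in Cxcl2 while the 30 that fell (blue) start at -0.54, with 26 of them above -3 and 4 immunoglobulin genes below -5.

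Transcription factors of the immediate early class gave the highest share of rises among the lists. Of 38 tested, 26 rose (68.4%, beside 1.45% of all genes) and 0 fell, with a median of 1.84. Without unconfined replicate 1, 11 of the 38 passed. Nr4a3, an orphan nuclear receptor, was close to the detection floor in unconfined cells at 3.95 and 3.10 and reached 323, 177 and 413 in confined ones (6.00 on the log2 scale with an SE of 0.793, and a limma adjusted p of 0.00322). Its relative Nr4a1 went from 153 and 279 to 3532, 2687 and 6916, a rise of 4.28. In Nr4a2 the change was from 12.8 and 63.0 to 458, 558 and 405. So the 3 members of this receptor family rose together, and as in all 184 rises the groups did not overlap. Among AP-1 subunits, Fosb showed 122 and 146 unconfined against 4550, 3556 and 8619 confined (5.27 on the log2 scale with an SE of 0.470, and a limma adjusted p of 3.2e-04). Fos itself stood at 2643 and 1241 and rose to 12211, 5494 and 9914, a call lost without unconfined replicate 3 (limma adjusted p 0.0642). Fosl2 climbed from 774 and 836 to 4293, 3246 and 4110, with the second smallest p of all genes. Jun and Junb also rose, by 1.76 and 2.13, and Jund by 1.01.

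Klf4, a zinc-finger factor that responds to shear and inflammatory stimuli, had the smallest p of all genes tested. Its normalized read count was 89.8 and 154 unconfined and 2158, 1720 and 1965 confined (4.03 on the log2 scale with an SE of 0.231, and a limma adjusted p of 1.1e-05). Unlike most strong rises, its confined libraries differed by only 1.25-fold between the highest and the lowest. The growth response factors Egr1 and Egr3 rose by 4.00 and 4.33; Egr1 went from 377 and 202 to 4347, 2281 and 8827. Egr3 stood at 235 and 241 in confined replicates 1 and 2 but at 2102 in replicate 5, and its call was lost without either unconfined library (limma adjusted p 0.195 without replicate 1 and 0.0643 without replicate 3). Maff, a small Maf protein without an activation domain, rose from 32.6 and 52.7 to 760, 496 and 1543. The 12 members that did not pass had values between -0.22 (Cebpd) and 2.02 (Egr2) and included Atf3 (3960 and 4466 against 6084, 4402 and 9394), and Myc (1.01, limma adjusted p 0.269).

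**Figure D2:**
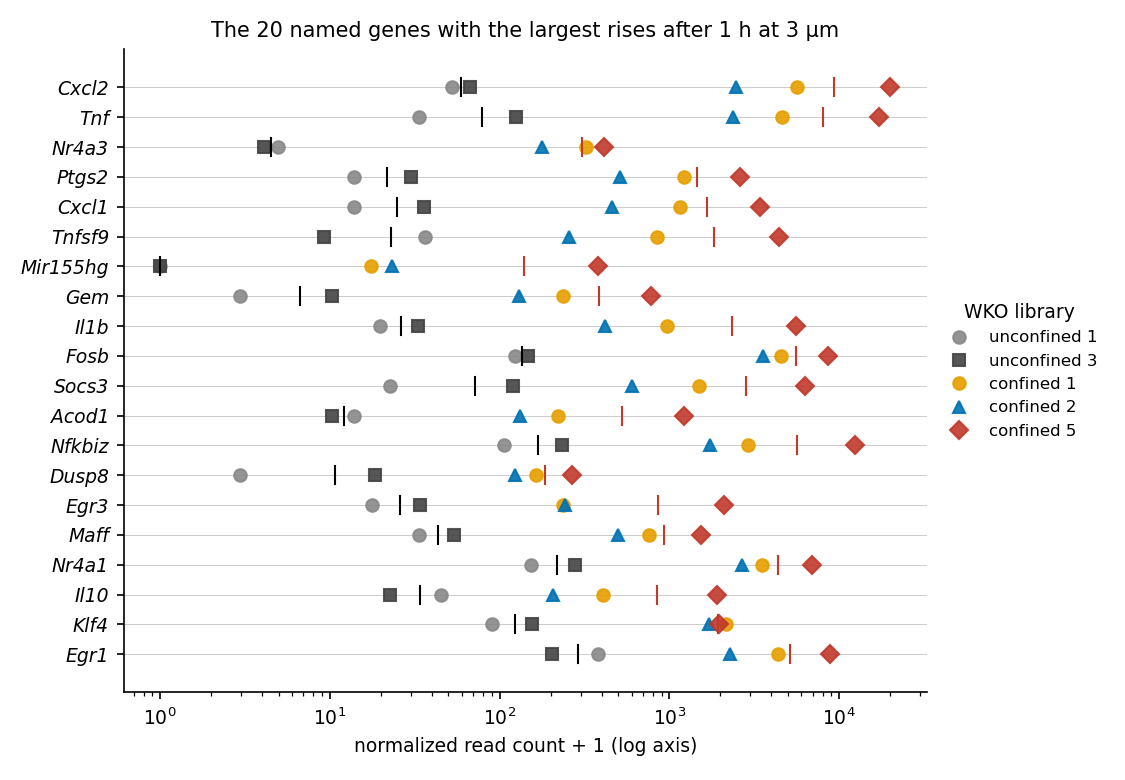
Normalized read count + 1 (log axis) in each of the 5 WKO libraries for the 20 named genes with the largest rises; grey symbols are the 2 unconfined and coloured symbols the 3 confined libraries, and short vertical bars are group means. Every confined library lies above every unconfined one, as the choice of these genes required. Confined replicate 5 (red diamonds) is highest in all but Klf4.

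Chemokine and cytokine genes included the top 2 rises, Cxcl2 and Tnf. Of 20 chemokine genes tested, 5 rose (25.0%), and of 22 cytokine and growth factor genes 7 rose (31.8%), beside 1.45% of all genes. Cxcl2, which attracts neutrophils through Cxcr2, had the largest rise of any gene: 51.3 and 66.1 unconfined became 5636, 2471 and 20070 confined (6.79 on the log2 scale with an SE of 0.705, and a limma adjusted p of 8.1e-04). Cxcl1, a ligand of the same receptor, went from 12.8 and 35.1 to 1156, 458 and 3418. In Cxcl3, a neighbouring ligand gene on chromosome 5, 0 reads were counted in either unconfined library and the confined ones stood at 21.97, 21.1 and 144, at least 20.6-fold higher with 3 reads per library as the floor. All 3 were highest in confined replicate 5, and as in all 184 rises their groups did not overlap. Cxcl10, a ligand of Cxcr3, rose from 20.7 and 24.8 to 217, 118 and 1377, and Ccrl2, a chemerin-binding receptor placed in the chemokine list, from 135 and 406 to 1899, 1143 and 5588. Without unconfined replicate 1 the calls of Cxcl10 and Ccrl2 were lost (limma adjusted p 0.295 and 0.216), and that of Cxcl10 also without unconfined replicate 3 (limma adjusted p 0.234). Cxcl3 lost its call without either (limma adjusted p 0.122 without replicate 1 and 0.107 without replicate 3).

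The CC chemokines Ccl2, Ccl3 and Ccl4 did not pass the test. Ccl2, a monocyte attractant, stood at 1066 and 429 unconfined and 1391, 881 and 4195 confined, so the groups overlapped. Ccl3 gave 701 and 219 against 1325, 797 and 6313, with a log2 fold change of 2.26 and a limma adjusted p of 0.175. Both were highest in confined replicate 5, as was the list as a whole: the median over the 20 chemokines was 0.58 and 0.34 in confined replicates 1 and 2 and 2.46 in replicate 5. Leaving that library out, the median of the list was 0.48 in place of 1.00, and 5 members still passed.

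Tnf led the cytokines. It was counted at 32.6 and 124 unconfined and at 4583, 2368 and 17188 confined (6.46 on the log2 scale with an SE of 0.763, and a limma adjusted p of 0.00128), and it passed in all 18 alternatives. Il1b, whose product needs cleavage by caspase-1 before release, went from 18.7 and 32.0 to 968, 415 and 5615. The anti-inflammatory cytokine Il10 rose at the same hour, from 44.4 and 21.7 to 408, 204 and 1921. Tnfsf9, the ligand of the costimulatory receptor 4-1BB, increased by 5.75 and Osm, an Il6 family cytokine, by 2.61. The calls of Tnfsf9 and Il10 were lost without unconfined replicate 3 (limma adjusted p 0.204 and 0.164) and without unconfined replicate 1 (limma adjusted p 0.0635 and 0.0704). Without unconfined replicate 1 Il1b and Osm did not pass either (limma adjusted p 0.0645 and 0.0747). Gdf15, a stress-induced hormone of the TGF-beta family, was 541 and 563 unconfined and 5088, 2444 and 6074 confined. Vegfa, the main angiogenic growth factor, showed an even rise from 922 and 1237 to 3677, 3111 and 3188.

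Not every inflammatory cytokine passed the test. Il6 was at 0 in both unconfined libraries and in confined replicate 2, with 23.5 and 44.3 in replicates 1 and 5 (limma adjusted p 0.369). Il1a stood at 54.3 and 74.3 against 351, 239 and 4032, a difference of 3.44 with an SE of 0.882 that missed the threshold (limma adjusted p 0.0872). Its groups did not overlap, as in 28.2% of all genes, and it passed in 7 of the 18 alternatives. The missed threshold does not show that Il1a was unchanged. Ifnb1, the macrophage type I interferon, was below the filter: it had 0.987 in unconfined replicate 1, which is 1 read, and 0 in the other 4.

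Of 25 genes of the NF-kB pathway and its feedback, 13 rose (52.0%, beside 1.45% of all genes) and 12 did not pass. All 25 had values above 0, as did 47.9% of all genes, and the median was 1.49. The 3 largest rises in the list were those of Socs3, Nfkbiz and Nfkbia. Nfkbia, which encodes the inhibitor IkB-alpha, rose from 459 and 873 to 7366, 3556 and 15490 (3.55 on the log2 scale with an SE of 0.484, and a limma adjusted p of 0.00363). Nfkbiz, which encodes a nuclear IkB protein that acts mainly as a coactivator of secondary NF-kB targets, went from 105 and 231 to 2890, 1735 and 12379. Tnfaip3, a ubiquitin-editing enzyme known as A20, was 1263 and 1372 unconfined and 7757, 4325 and 18898 confined. Socs3, the feedback inhibitor of Il6-type receptors, climbed from 21.7 and 119 to 1501, 599 and 6333. Of the subunits, Rel rose by 2.34, Relb by 1.40 and Nfkb2 by 0.85. Rela and Nfkb1 did not pass, with 0.45 and 0.20. This list was sensitive to the controls: without unconfined replicate 1 0 members of the list passed, and in the fit of the 5 WKO libraries alone it was 1.

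Promoter sequences are shown for 5 genes that rose, to print what stands before their start sites. Each is the stretch of 250 bases before the RefSeq start (GRCm38.p6), read 5′ to 3′ on the gene's strand. Capitals mark matches, on either strand, to the NF-kB consensus or to the cyclic AMP response element (CRE, TGACGTCA). The windows are Cxcl1 at chr5:90890995-90891244 (plus strand), Cxcl2 at chr5:90903649-90903898 (plus), Nfkbia at chr12:55492648-55492897 (minus), Fosb at chr7:19310046-19310295 (minus) and Dusp8 at chr7:142095285-142095534 (minus).
Cxcl1: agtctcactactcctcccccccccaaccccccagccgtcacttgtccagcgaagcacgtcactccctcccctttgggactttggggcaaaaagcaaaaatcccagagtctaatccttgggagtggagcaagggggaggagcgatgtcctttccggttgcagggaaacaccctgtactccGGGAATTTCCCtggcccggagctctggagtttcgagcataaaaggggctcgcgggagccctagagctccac
Cxcl2: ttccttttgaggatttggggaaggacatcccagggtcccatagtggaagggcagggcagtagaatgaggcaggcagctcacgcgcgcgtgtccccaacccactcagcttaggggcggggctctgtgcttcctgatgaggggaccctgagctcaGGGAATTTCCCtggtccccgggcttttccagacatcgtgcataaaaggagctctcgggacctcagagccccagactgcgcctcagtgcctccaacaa
Nfkbia: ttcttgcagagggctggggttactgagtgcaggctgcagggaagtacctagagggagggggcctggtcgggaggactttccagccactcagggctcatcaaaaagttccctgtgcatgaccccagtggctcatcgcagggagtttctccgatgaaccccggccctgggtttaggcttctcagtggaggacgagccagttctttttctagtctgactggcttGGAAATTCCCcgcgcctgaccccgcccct
Fosb: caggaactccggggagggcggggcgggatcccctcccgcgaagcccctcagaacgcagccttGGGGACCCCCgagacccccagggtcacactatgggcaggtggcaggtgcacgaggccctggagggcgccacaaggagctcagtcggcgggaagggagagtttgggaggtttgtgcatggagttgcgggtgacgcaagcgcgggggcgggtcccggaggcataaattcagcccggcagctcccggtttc
Dusp8: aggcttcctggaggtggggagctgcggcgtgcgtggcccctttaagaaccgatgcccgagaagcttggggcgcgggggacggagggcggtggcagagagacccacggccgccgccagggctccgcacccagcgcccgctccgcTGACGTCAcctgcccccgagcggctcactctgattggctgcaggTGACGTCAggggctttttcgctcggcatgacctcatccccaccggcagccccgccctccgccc

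Cxcl1 and Cxcl2 hold the same run of 11 capital bases, in which 2 matches to the NF-kB consensus overlap. Among all 32851 RefSeq windows of this length, 7.25% hold an NF-kB consensus and 1.55% a CRE. In windows of tested genes the shares were 8.95% and 2.56%, with 1.08% for a CArG box and 4.6% for an AP-1 site. These shares are per window, whereas the counts that follow are per gene, and Maff had 3 windows. Of the 20 largest named rises, 14 had a window among those searched. Windows on chromosome 18, where Egr1 lies, were left out of this count, so Egr1 was not searched. In 4 of these 14 (Cxcl1, Cxcl2, Fosb and Maff) a window held the NF-kB consensus, in 2 (Dusp8 and Maff) a CRE and in 0 a CArG box or an AP-1 site (TGANTCA). The windows of Klf4, Mir155hg, Nr4a1, Nr4a3, Ptgs2 and Socs3 held none of the motifs searched, which included the TATA box (TATAAA). Only 79.3% of the genes that rose and 50% of those that fell were matched to the table, so shares over these groups are not compared. A match is a string of letters and does not show that a factor binds.

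MAP kinase feedback genes and mRNA decay regulators were also among the rises. Of 24 feedback genes 6 rose (25.0%, beside 1.45% of all genes), with a median of 1.34. Gem, a small GTPase that restrains calcium channels, went from 1.97 and 9.29 to 236, 128 and 782 (log2 fold change 5.71, SE 0.674), and it was called in all 18 alternatives. The dual-specificity phosphatases Dusp8, Dusp5, Dusp2 and Dusp1, which inactivate MAP kinases, rose by 4.56, 3.35, 2.74 and 1.90. Dusp8 stood at 1.97 and 17.6 unconfined and 162, 122 and 265 confined. Dusp6, which is specific for ERK, had 1500 and 684 against 724, 663 and 635 and did not pass (-0.59, limma adjusted p 0.318). The call of Dusp2 was lost without unconfined replicate 1 (limma adjusted p 0.422) and without unconfined replicate 3 (limma adjusted p 0.0705).

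Of 24 regulators of mRNA decay 7 rose (29.2%, beside 1.45% of all genes). Zc3h12a, an endonuclease also named Regnase-1 that cuts cytokine messages, went from 203 and 401 to 1938, 1480 and 3148 (2.86 on the log2 scale with an SE of 0.299, and a limma adjusted p of 8.1e-04). Zfp36, or tristetraprolin, which binds AU-rich elements, stood at 3041 and 3926 unconfined and 12088, 7359 and 20629 confined. In Tob1, an adaptor that recruits deadenylases, the rise was even: 212 and 187 became 876, 925 and 1013. With unconfined replicate 1 or, in turn, replicate 3 left out, the limma adjusted p of Zfp36 was 0.328 and 0.168. Tob2, Btg2, Arid5a and Zc3h12c made up the rest, with rises of 1.67, 1.76, 1.53 and 2.87. Without unconfined replicate 1 the calls of Btg2 and Arid5a were lost (limma adjusted p 0.290 and 0.246), and that of Btg2 also without unconfined replicate 3 (limma adjusted p 0.0687). Subunits of the deadenylase complex itself did not pass: Cnot1, Cnot3, Cnot6 and Cnot7 lay between -0.36 and 0.11.

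Further inducible enzymes and RNAs of activated macrophages were among the 20 largest rises. Ptgs2 is the cyclooxygenase that carries out the rate-limiting step of prostaglandin synthesis in inflammation. It rose from 12.8 and 28.9 to 1213, 510 and 2617 (5.85 on the log2 scale with an SE of 0.563, and a limma adjusted p of 4.2e-04). It was the only 1 of 18 prostaglandin genes tested that passed (5.56%, beside 1.69% of all genes). Ptgs1 had -0.21 and the synthase Ptges 0.00. Acod1, the mitochondrial enzyme that makes itaconate, went from 12.8 and 9.29 to 221, 131 and 1226, and its call was lost without either unconfined library (limma adjusted p 0.0793 without replicate 1 and 0.0953 without replicate 3). Mir155hg, the host transcript of miR-155, had 0 reads in both unconfined libraries and 16.5, 22.1 and 377 in the confined ones, at least 45.8-fold higher by the same floor. Its mean rests on confined replicate 5, it passed in 10 of 18 alternatives, and its call was lost without either unconfined library (limma adjusted p 0.207 without replicate 1 and 0.181 without replicate 3).

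Protective and stress genes rose in small numbers, to be read beside the 1.45% of all genes that rose. Of 27 cytosolic chaperone genes 3 rose: Hspa1a from 17.8 and 21.7 to 242, 96.9 and 394, Hspa1b from 10.9 and 18.6 to 164, 74.7 and 117, and Hsp90aa1 from 4163 and 3817 to 5492, 5971 and 6396. Hspa1a and Hspa1b encode the same inducible Hsp70 and are 99.2% identical where they match, so their reads cannot be assigned with certainty. Hsp90aa1 is matched over 68.7% of its transcript by Gm12346 at 99.5% identity and is uncertain in the same way. Without unconfined replicate 1, 0 of the 27 passed. The other 24, among them Hsph1 (0.09) and Bag3 (0.38), did not pass. In the p53 target list 4 of 31 rose (12.9%): Gadd45b and Plk3, both also stress kinase or NF-kB responsive, the BH3-only factor Pmaip1, and Btg2, which is in the immediate early list too. The classical targets Cdkn1a (0.87, limma adjusted p 0.113) and Mdm2 (limma adjusted p 0.0509) did not pass. With unconfined replicate 1 or, in turn, replicate 3 left out, the limma adjusted p was 0.125 and 0.239 for Pmaip1 and 0.136 and 0.278 for Plk3, and Gadd45b had 0.0645 without replicate 1. In the list for endoplasmic reticulum and integrated stress, Ppp1r15a alone rose (290 and 696 to 2112, 1254 and 3474), a call lost without unconfined replicate 1 (limma adjusted p 0.311). Atf4 had 0.83 (limma adjusted p 0.0562) and Ddit3 -0.05.

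Metabolic lists contributed single genes, to be read beside the 1.45% of all genes that rose. In the hypoxia and glycolysis list Vegfa, Pfkfb3 and Slc2a1 rose, 3 of 37 (8.11%). Slc2a1, the glucose transporter Glut1, went from 729 and 626 to 1036, 972 and 1289, and Pfkfb3, which makes the activator of phosphofructokinase, from 740 and 927 to 1259, 1381 and 2166. With unconfined replicate 1 or, in turn, replicate 3 left out, the limma adjusted p was 0.128 and 0.328 for Slc2a1 and 0.408 and 0.153 for Pfkfb3. The glycolytic enzymes Pgk1, Ldha and Gapdh stood between -0.27 and -0.05 and did not pass. Insig1, which retains the sterol sensor in the endoplasmic reticulum, was the only 1 of 34 cholesterol and fatty acid genes to rise. It did so evenly, from 1629 and 1724 to 3054, 3064 and 3325, and kept its call in all 18 alternatives. Slc7a11, the cystine transporter, was 1 of 27 antioxidant genes to rise (81.9 and 71.2 to 238, 267 and 701), a call lost without unconfined replicate 1 or 3 (limma adjusted p 0.216 and 0.255).

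Nuclear envelope, actin and interferon genes were listed because the title of the series names actin, rupture of the nuclear envelope and inflammation. Of 36 genes for the lamina, the links between nucleus and cytoskeleton and the repair of the envelope, only Lmna rose. That is 2.78%, beside 1.45% of all genes. Lmna, which encodes lamins A and C, went from 3251 and 3064 to 6149, 5816 and 7985 (1.06 on the log2 scale with an SE of 0.180, and a limma adjusted p of 0.0123), a call lost without either unconfined library (limma adjusted p 0.115 without replicate 1 and 0.145 without replicate 3). Lmnb1 (0.19), Lmnb2 (-0.23), Emd (0.12) and the ESCRT-III genes Chmp4b (0.15) and Chmp7 (-0.15) did not pass. In the list of actin nucleators and their promoters 1 of 41 rose (2.44%), so near the share of all genes that the count says little about the list. This was Jmy, a nucleation promoter that also binds the p53 cofactor p300, from 376 and 337 to 706, 1040 and 893 (1.29 on the log2 scale with an SE of 0.179, and a limma adjusted p of 0.00399). Without unconfined replicate 3 the limma adjusted p of Jmy was 0.0590. Wasl, the broadly expressed relative of Was, had 373 and 428 against 417, 538 and 601 and did not pass (limma adjusted p 0.438).

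Actins and SRF-MRTF targets, genes that respond to actin polymerization, gave 0 calls in 34. In the test as reported 1.69% of all genes passed, so 0 or 1 call in a list of this size is unremarkable. When confined replicate 1 was left out 4 of the 34 passed, but in that setting 1050 of all 12660 genes passed. Actb stood at 72672 and 68441 unconfined and 74687, 96419 and 98039 confined (0.34, limma adjusted p 0.310). Srf itself had 0.51 (limma adjusted p 0.161). Of 23 genes listed as responsive to YAP or strain, 1 rose: Nuak2, a kinase of the AMPK family, by 1.19, a call lost without unconfined replicate 1 (limma adjusted p 0.201). The standard YAP targets Ccn1 and Ccn2 had -0.35 and -0.10 with overlapping groups.

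The type I interferon list gave 1 call in 43, Cxcl10 (2.33%, beside 1.69% of all genes), and a median of -0.09. Isg15 stood at 66.1 and 58.8 unconfined and 112, 55.8 and 85.1 confined (limma adjusted p 0.657). In the list for cytosolic nucleic acid sensing, Il1b was the only 1 of 26 to rise (3.85%). Cgas, the DNA sensor, had 267 and 183 against 208, 288 and 288, and its adaptor Sting1 487 and 595 against 549, 397 and 564, so that both overlapped. The inflammasome sensor Nlrp3 was at 814 and 871 unconfined and 2253, 1676 and 7187 confined and missed the threshold (1.83, limma adjusted p 0.0601).

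Markers of the macrophage surface stayed mostly below the threshold, which 1.69% of all genes passed. Of 42 receptors and identity genes 2 rose and 1 fell. Tlr2, the receptor for bacterial lipoproteins, went from 370 and 506 to 2309, 1786 and 8161, and Cd14, which hands lipopolysaccharide to Tlr4, from 2885 and 3189 to 9372, 4938 and 14038. The calls of both were lost without unconfined replicate 1 (limma adjusted p 0.145 and 0.290) and without unconfined replicate 3 (limma adjusted p 0.0642 and 0.204). The single fall was Lpar6, described with the other falls. Among 30 lineage transcription factors Ets2, Id2, Cebpb and Rara rose, by 1.76, 1.75, 1.92 and 1.27, while Spi1 (0.10) and Cebpa (-0.02) did not pass. Without unconfined replicate 1 the limma adjusted p was 0.0909 for Id2, 0.270 for Cebpb and 0.128 for Rara, and without unconfined replicate 3 it was 0.237 for Rara. Cd40, a costimulatory receptor, was the single rise among 14 genes of antigen presentation (119 and 90.8 to 300, 226 and 755), a call lost without unconfined replicate 1 or 3 (limma adjusted p 0.220 and 0.352).

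Housekeeping lists gave 0 calls: 47 subunits of oxidative phosphorylation, 64 ribosomal proteins, 39 cell cycle genes, 32 lysosome genes and 18 lipid efflux genes. Over all genes 1.69% passed. The medians of the ribosomal and oxidative phosphorylation lists were -0.16 and -0.14, yet they turned on the library. They were 0.18 and 0.16 in confined replicate 1, -0.16 and -0.15 in replicate 2 and -0.39 and -0.43 in replicate 5. With the replicate number as a block they were 0.15 and 0.12. When confined replicate 1 was left out, 9 members of each list fell, in a setting where 232 of all 12660 genes fell.

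**Figure D3:**
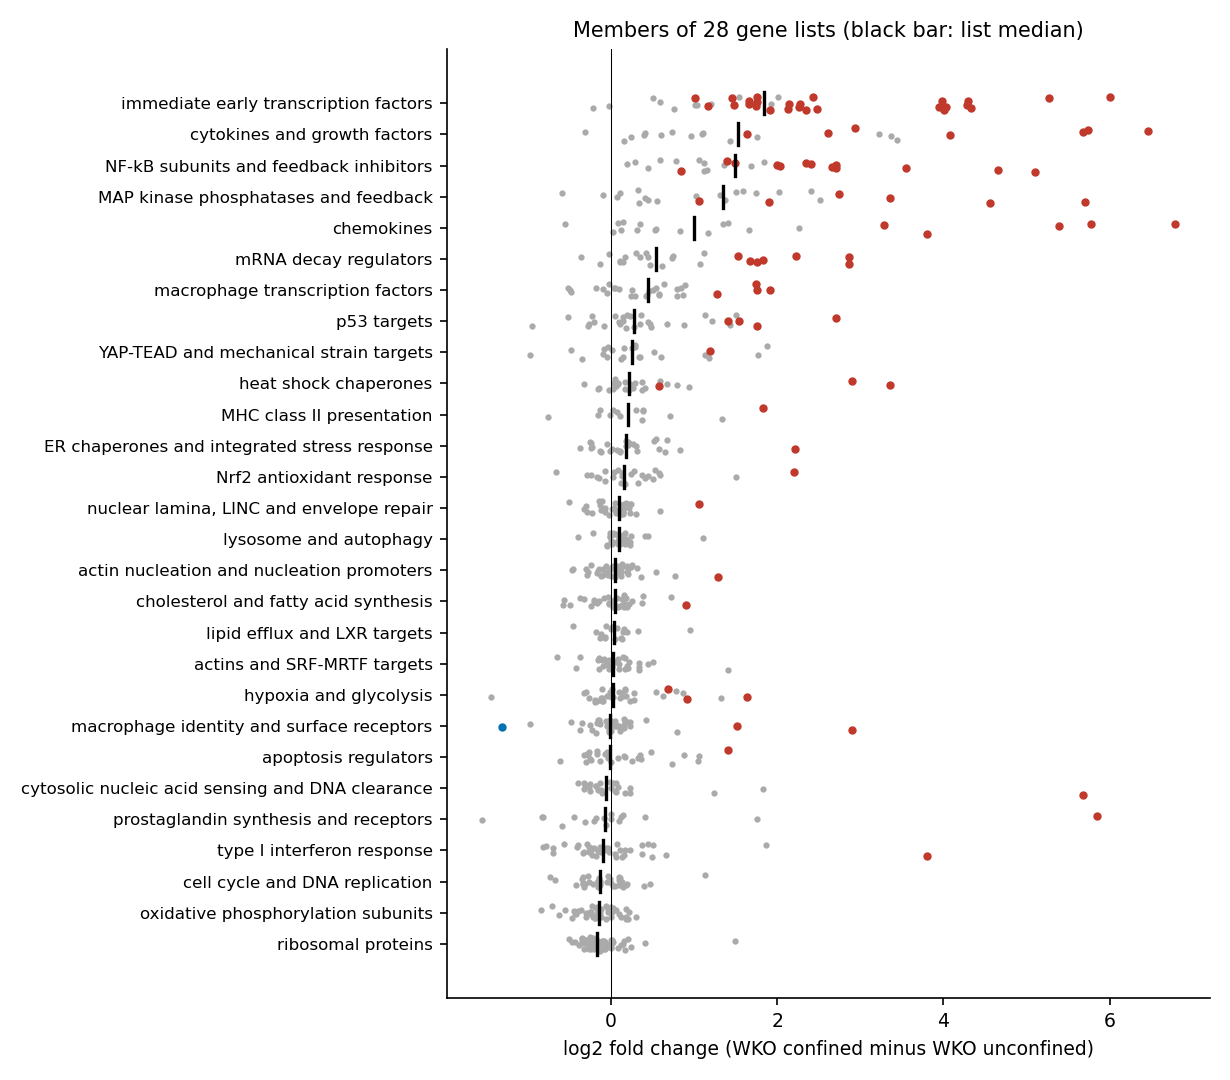
Log2 fold change (WKO confined minus unconfined) of each tested member of 28 gene lists; red points rose, blue points fell, grey points did not pass, and black bars are list medians. The immediate early, cytokine, NF-kB, MAP kinase feedback and chemokine lists have medians of 1.00 or more, and the other 23 lie between -0.16 and 0.54.

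The 30 genes that fell were a mixed set with smaller changes. Among the 20 with the largest falls and a mean of at least 50, log2 fold changes ran from -1.96 to -0.70. Bbs10, a chaperonin-like protein needed to assemble the ciliary BBSome, had 89.8 and 180 unconfined and 36.9, 27.4 and 32.4 confined (-1.96 on the log2 scale with an SE of 0.387, and a limma adjusted p of 0.0266). Lpar6, a receptor for lysophosphatidic acid whose exons overlap those of Rb1, went from 947 and 1226 to 378, 535 and 401. Ogt, the enzyme that adds O-linked N-acetylglucosamine to proteins, changed in the same direction: 4808 and 5287 became 2285, 3044 and 2927 (-0.88 on the log2 scale with an SE of 0.136, and a limma adjusted p of 0.00724). Rsrp1, an arginine- and serine-rich protein, fell from 7126 and 7087 to 4100, 4015 and 3788. Luc7l3, a splicing factor related to a U1 snRNP component, dropped from 1075 and 1136 to 593, 709 and 742. In each of these the 3 confined libraries stood below both unconfined ones, which the choice of the 20 required.

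Other falls were Sirt3, a mitochondrial deacetylase (136 and 149 to 73.0, 66.3 and 68.3), Trmt12, a tRNA-modifying enzyme (138 and 115 to 62.0, 60.0 and 50.3), Snapc3, a subunit of the snRNA-activating complex (201 and 196 to 70.6, 88.4 and 104), and Amn1 (192 and 197 to 54.9, 89.5 and 87.5). Zkscan3, a zinc-finger repressor of autophagy genes, fell from 675 and 559 to 325, 310 and 332, with Zfp397, Zfp90 and Zfp865 also in the list. Dynlt1c is matched over 100% of its transcript by Dynlt1a at 99.1% identity, so its fall of 1.29 on the log2 scale may belong to either. Each of the 20 lost its call in at least 2 of the 18 alternatives, and leaving out unconfined replicate 1 or 3 left 0 and 1 of the 30. Counts are also uncertain for AI480526, Lpar6, Snapc3, Sirt3, Gm12940, Zfp90 and Zfp865, whose exons overlap those of another gene, and the same holds among the rises for Tnfsf9, Mir155hg, Il1b, Dusp8, Dusp5, Cxcl10, Tob2, Ppp1r15a, Plk3, Slc2a1, Cebpb and Zfp36. Whether counting used strand is not given in the sources used here.

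**Figure D4:**
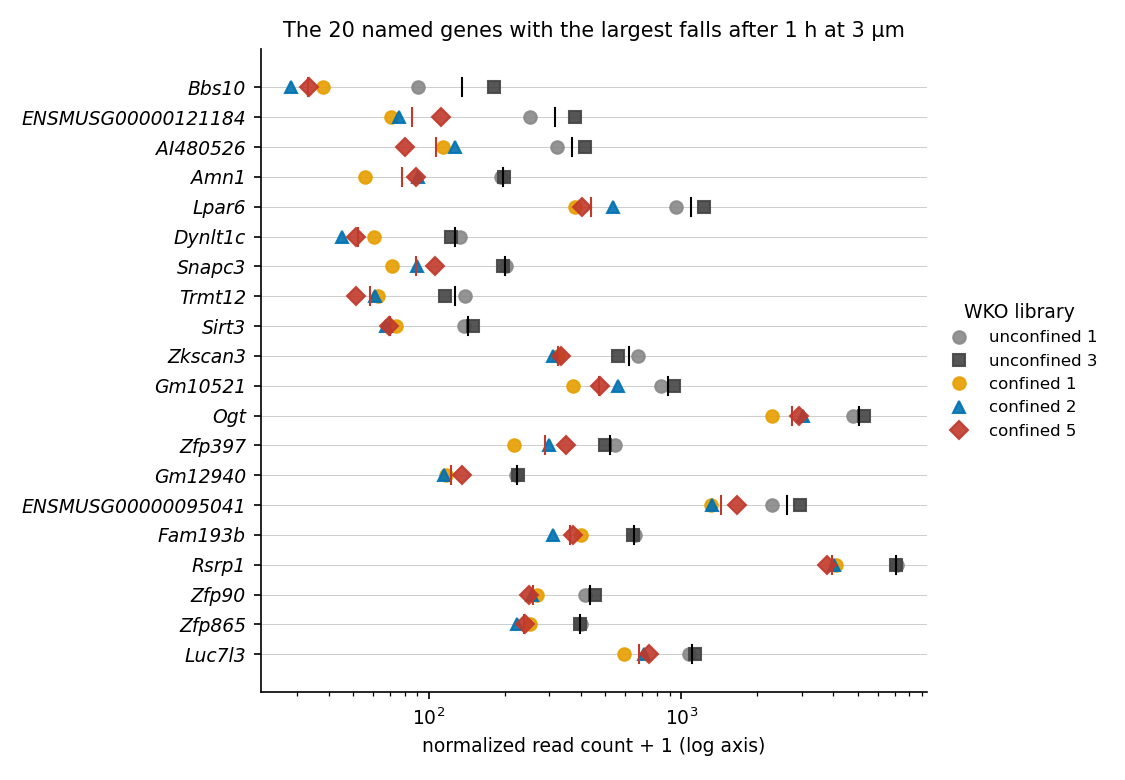
Normalized read count + 1 (log axis) in each WKO library for the 20 named genes with the largest falls; symbols as for the largest rises, with short vertical bars at the group means. The confined libraries (coloured) stand below both unconfined ones (grey) in every row, as the choice of these genes required. Confined means were 0.239 to 0.616 times the unconfined ones.

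The 4 steepest falls were of antibody genes at low levels. Igkv1-122 stood at 39.5 and 52.7 unconfined and 0 in all 3 confined libraries, at least 15.2-fold lower with 3 reads per library as the floor. Igkv6-23 and Igkv8-27 behaved alike (at least 14.7-fold and 13.3-fold lower), and Ighg3 went from 70.0 and 43.4 to 0, 2.11 and 0. Over 73 immunoglobulin genes tested these were the only 4 called, where 0.237% of all genes fell. Of the 73, 66 were below 0, beside 52.1% of all genes, and the median was -1.88 on the log2 scale. Igkv1-122, Igkv6-23 and Igkv8-27 passed the filter on the mean through the unconfined libraries alone. Such selection adds to the count below 0. The summed level of all 73 was 9873 and 9350 unconfined and 11322, 8809 and 2797 confined. These genes are made by B lineage cells. Of the 10 B lineage markers above, 2 are immunoglobulin genes themselves (Ighm and Igkc) and make up most of that sum. The other 8 summed to 201 and 149 unconfined and 115, 133 and 97.0 confined, but single members were mixed and many stood near the floor. Cd79b, the largest, had overlapping groups (98.7 and 69.2 against 71.4, 54.7 and 49.1). Ebf1 was highest in confined replicate 5 and Pax5 in confined replicate 2. Only Ms4a1 did not overlap (25.7 and 19.6 against 5.49, 16.8 and 0). The part of B lineage cells in these falls was not tested.

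Confined libraries differed more among themselves than those of any other group. The median SD of a gene was 0.269 (log2) in confined WKO libraries, 0.126 in unconfined WKO and 0.153 and 0.162 in the confined and unconfined WT groups. Among the 184 rises, replicate 5 was the highest confined library in 147, replicate 1 in 22 and replicate 2 in 15, while over all genes the split was 4850, 4600 and 3210. Relative to the unconfined mean, the median of the 184 was 1.57, 1.38 and 2.14 in replicates 1, 2 and 5. The 30 falls were not largest in replicate 5, with medians of -1.19, -1.06 and -0.99. Among them replicate 1 was the lowest confined library in 17, replicate 2 in 7 and replicate 5 in 6. Over all genes that split was 4721, 3512 and 4427. Stromal markers were also highest in replicate 5, and their part in the size of its response was not tested. Without this library 170 of the 184 rises and 22 of the 30 falls still passed, among a total of 205 and 33.

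The rises themselves split by how evenly the confined libraries answered. In 60 of the 184 the highest confined library was less than 1.5 times the lowest, and in 45 it was more than 3 times. Even rises included Insig1 (1.09-fold), Tob1 (1.16-fold), Vegfa (1.18-fold), Id2 (1.23-fold), Klf4 (1.25-fold) and Fosl2 (1.32-fold). The least even rises were Mir155hg (22.9-fold), Tnfsf9 (17.2-fold), Il1b (13.5-fold), Cxcl10 (11.7-fold) and Socs3 (10.6-fold). The median ratio was 1.95 for the rises and 1.34 for the falls, beside 1.42 for all genes. By list, the median ratio was 6.94 for chemokines, 3.05 for cytokines, 2.86 for NF-kB genes and 2.16 for immediate early factors.

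**Figure D5:**
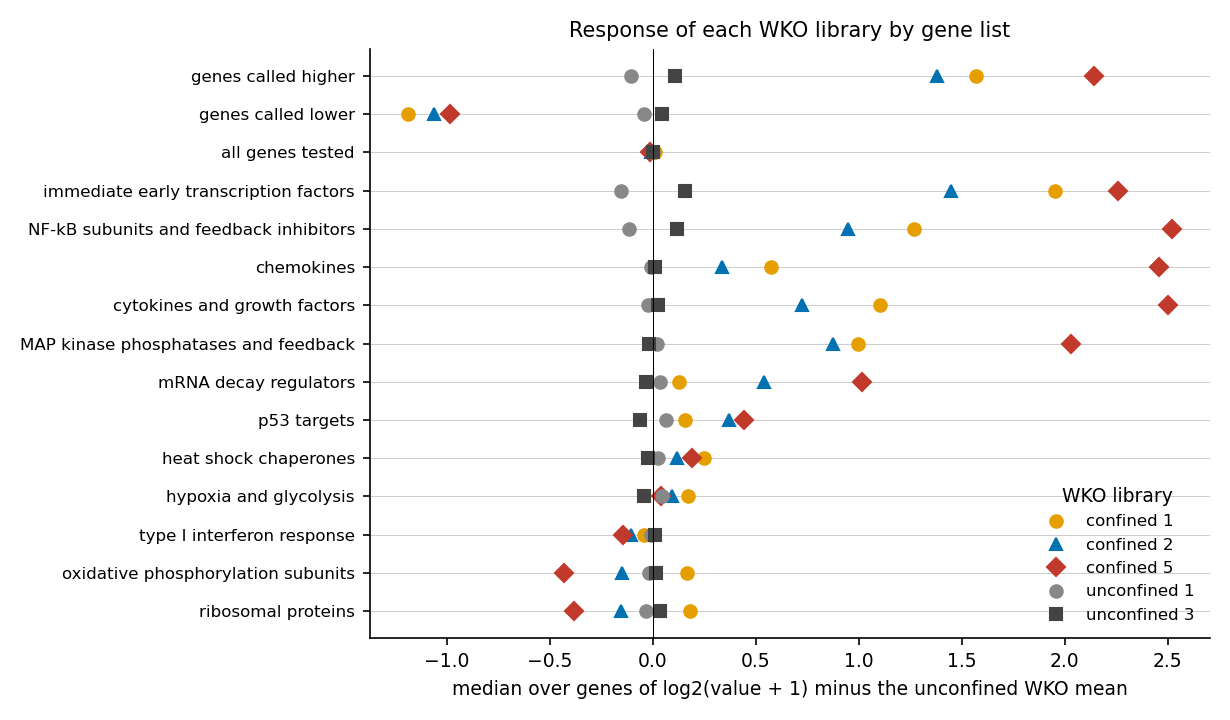
Median over each gene set of log2(value + 1) minus the unconfined WKO mean, for each of the 5 WKO libraries. Confined replicate 5 (red diamonds) stands at 2.46 for chemokines and 2.50 for cytokines, against 0.34 to 1.10 in replicates 1 and 2, while the genes that fell lie within -0.99 to -1.19 in all 3.

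Features that the comparison did not use were read from the GENCODE M21 annotation. Genes that rose were short: the median span was 14.7 kb for 183 annotated genes, against 22.2 kb for all tested, and 41.0% against 27.4% spanned less than 10 kb. Their median exon number was 5 against 9, and 7.22% had a single exon against 1.96%. Their 3′ untranslated regions carried the AU-rich motif UAUUUAU more often, in 51.4% of 179 genes with such a region against 28.3% of all genes. These regions were also longer (median 1262 against 1012 bases); per kilobase the motif stood at 0.615 against 0.288. Of the 28 annotated genes that fell, 71.4% were typed as protein-coding against 91.9% of all, while 23 had an annotated coding sequence. Their median span was 9.69 kb, and too few had an annotated untranslated region for the motif to be compared. The 30 falls include the 4 immunoglobulin genes above, and values without them were not computed.

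Beside these values, WT cells confined in the same way showed changes in the same direction. No library is shared between the 2 comparisons. Of the 184 genes that rose in WKO cells 183 were also above 0 in WT, and of the 30 that fell 30 were below 0; over all tested genes 69.6% had the same sign. In WT, 143 genes passed (1.13%), 110 higher (0.869%) and 33 lower (0.261%), among them 90 of the 184 and 6 of the 30. The median change was 1.69 in WKO and 1.32 in WT for the rises, and -1.08 and -0.82 for the falls, as chosen on the WKO values. The difference between the responses passed the threshold in 0 genes (0.0%) with limma, edgeR and DESeq2, and 264 had an unadjusted limma p under 0.05. The smallest limma p of that difference among the 184 was 0.00253, for Slc2a1, which rose by 0.69 in WKO and had -0.07 in WT (interaction adjusted p 0.999). Tnf and Cxcl2 changed by 6.46 and 6.79 in WKO and by 6.47 and 6.80 in WT. Cxcl1 had 5.77 in WKO and 8.48 in WT, where it started from 1.90 and 3.84, and this difference of -2.71 had an unadjusted limma p of 0.0145 (adjusted p 0.999). Ptgs2 stood at 5.85 in WKO and 4.32 in WT, a difference of 1.53 with an SE of 0.796. A p that misses the threshold does not show that the genotypes respond alike.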

How the data were processed

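Values deposited by the authors are normalized read counts (a signal), with genes in rows and libraries in columns of a single table. In every library 100% of the values were whole multiples of 1 read, equal to read counts divided by 1 median-of-ratios size factor. The submitters' processing notes name FastQC, Trim Galore, STAR and GRCm38/mm10; the counting tool, annotation and use of strand are not given in the sources used here. Scaling removes depth, not composition. Symbols came from the table or GENCODE M21.

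The test was limma 3.58.1 (R 4.3.3) on log2 of these values plus 1, in a single fit of 4 group means over all 10 libraries (6 residual degrees of freedom, mean-variance trend), with Benjamini-Hochberg adjustment over 12660 genes. Library totals were 13295701 to 19329908 reads; no replicate pair agreed within sampling noise (chi-square per degree of freedom 7.56 to 78.3). Alternatives used edgeR 4.0.16 and DESeq2 1.42.0 on recovered reads, other scalings, filters, pseudocounts and fits, and left out each WKO library; the code was tested on simulated data. Similar transcripts were sought with blastn 2.17.0 (95% identity, 100 bases, 20% of the transcript). Named genes are the 20 largest rises and falls whose groups do not overlap and whose mean reaches 50, up to 5 called members of each list, and 25 fixed by name. Some items are not reported here. The members, lists and tests were chosen with earlier results of these data known.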

Additional observations from a re-analysis of the deposited data

Results flagged for a closer look

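Srf, the serum response factor that partners the actin-regulated MRTF coactivators, was above the unconfined mean in each confined WKO library and below it in each confined WT library. Its normalized read count was 625 and 470 in unconfined WKO libraries and 803, 667 and 853 in confined ones, while in WT it went from 787 and 861 to 728, 673 and 761. The log2 fold change was 0.51 in WKO and -0.19 in WT, and the difference of 0.70 (SE 0.221, limma p 0.00835) did not pass after adjustment over all genes (adjusted p 0.999). Groups of 3 or fewer libraries were too small for the search for outlying samples.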

How the results depend on the processing

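Of the 214 calls 0 changed direction, which groups without overlap fix in advance for most alternatives. The number of calls moved with the model of the spread. Genes higher and lower numbered 32 and 1 (33 in all) when only WKO libraries were fitted, 388 and 96 (484) with DESeq2, 37 and 12 (49) without the mean-variance trend, and 1066 and 621 (1687) with array weights, which weighted confined replicate 2 at 3.60 and replicates 1 and 5 at 0.287 and 0.324. The share that rose was 86.0% in the test as reported and 63.2% with array weights, 75.5% without the trend and 97.0% with WKO libraries only. Without a filter 50 genes fell. The fit of WKO libraries without confined replicate 5, chosen after seeing the data, gave 17 falls. Leaving out single libraries gave 43 to 1050 calls, 42 to 818 of them higher and 1 to 232 lower. edgeR on recovered reads called 193.

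The WT count of 143 became 391 in WT libraries only, 328 with DESeq2, 13 without the trend, 417 with array weights and 109 to 404 when 1 WKO library was left out. The interaction stayed at 0 under every alternative. Both WKO groups share only the number 1, and deviations of same-numbered libraries correlated between -0.12 and 0.08, so the numbers were not taken as pairs; with a replicate block 220 genes passed in WKO and 215 in WT.

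Only uncalled genes reversed: Isg15 with array weights (-0.044), Ccn1 with edgeR (0.054), DESeq2 (0.069) and without confined replicate 2 (0.45), and Ccn2 with edgeR (0.056), DESeq2 (0.074), the replicate block (0.33), without unconfined replicate 1 (0.20) and without confined replicate 2 (0.33). Over the fits without 1 library these ranged from -1.004 in Ccn1 and -0.594 in Ccn2, both without confined replicate 5. The cause was not tested.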

Other observations

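Several further rises concern genes outside the lists, and they were chosen after their values were seen. Irs2, the adaptor of the insulin receptor, rose from 387 and 613 to 2148, 2085 and 2535 (log2 fold change 2.20) and by 2.32 in WT. The inhibitory Smads of TGF-beta and BMP signalling also rose: Smad6 from 15.8 and 25.8 to 170, 203 and 164, and Smad7 from 102 and 214 to 490, 682 and 551. In all 3 genes the confined libraries were close to each other. Kdm6b, a demethylase of histone H3, went from 395 and 523 to 2322, 2037 and 6536. Clec4e, a receptor for mycobacterial cord factor, rose by 3.39 and Olr1, a receptor for oxidized lipoprotein, by 3.59, both highest in confined replicate 5. Ezr, which links actin to the membrane, rose from 648 and 589 to 1029, 1278 and 1799.

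Genes of the circadian clock, also chosen after their values were seen, did not move as 1 block. Per1 rose from 353 and 872 to 1490, 1433 and 1415, the most even of all rises, and Nr1d1 from 120 and 275 to 708, 660 and 842. Per2, Cry1, Nfil3, Bhlhe40 and Bhlhe41 rose by 2.05, 1.17, 1.66, 1.66 and 0.75. Per3 (-0.54), Cry2 (0.65), Nr1d2 (0.35), Dbp (-0.15), Clock (0.43) and Tef (-0.18) did not pass.

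Symbols starting with Zfp, Zkscan or Zscan, many of them zinc-finger repressors, leaned the other way. Of 339 tested 242 (71.4%) were below 0, beside 52.1% of all genes, with a median of -0.25 in WKO and -0.19 in WT. Of the 339, 5 fell and 3 rose, where over all 12660 genes 30 fell (0.237%) and 184 rose (1.45%). Most members did not pass, so the shift of the median is one of many small values. It was -0.39, -0.09 and -0.17 in confined replicates 1, 2 and 5 and -0.25 without replicate 5. This family was chosen after values were seen and was not tested as a set.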
